A study of Caenorhabditis elegans with 10 samples.

Results

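The precuticle genes let-653, lpr-1, lpr-3, fbn-1, lrp-1 and ptr-4 were followed in Caenorhabditis elegans from late larval life into young adulthood. They were found by translating the sequence names of the deposited count tables into gene symbols, and they are 6 of the 46589 genes listed. Each of the 6 passed the filter on low counts, which left 15924 genes for testing. RNA came from whole animals of the genotype him-5, a mutation that raises the share of males among the progeny and that the animals of every group carried, so that no wild-type group stands beside them. The animals were kept at 20 °C on plates of OP50 bacteria with no further treatment given in the labels. For each sex, 1 library was made at 30 to 34 h after hatching (late L3), 1 at 36 to 40 h (early L4), 1 at 42 to 46 h (late L4) and 1 each at 48 to 52 h and 54 to 58 h (young adult), where L3 and L4 are the last larval stages. The question was how expression changes in both sexes while they mature.

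The precuticle is a transient layer of secreted and membrane-bound proteins that covers the outward-facing surface of epithelia before a new cuticle is laid down at a molt. It shapes the epidermis, the vulval lumen and narrow tubes such as the excretory duct, and it is cleared once the cuticle is in place. The last molt of the animal separates the L4 larva from the adult.

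The 10 libraries held 8189325 to 27907544 reads on genes. Reads not aligned made up 25.38% of the male library of 54 to 58 h and 3.31% to 13.49% of the others. Levels are given in CPM, reads per 1000000 gene reads after TMM scaling of library sizes. No combination of sex and window was sequenced more than once, and nothing in the labels says whether the libraries came from separate cultures, so the p-values measure the spread between these libraries and between windows. The summed level of the 8 epidermal markers was 235, 253, 109, 155 and 178 CPM in hermaphrodites in order of time and 443, 321, 148, 143 and 126 CPM in males. All 8 were read in every library except dpy-7, which was at 0 in males of 48 to 52 h, and 4 of them (dpy-7, che-14, nhr-23 and nhr-25) also stand in gene lists described further on. In hermaphrodites dpy-7 and che-14 held 115 and 48.6 CPM of the early L4 sum, but only 3.21 and 2.4 CPM of the late L4 sum. The sum thus follows in part the genes of those lists and is no separate measure of the amount of epidermis. The male tail marker sum lay between 47.7 and 110 CPM in the male libraries and between 0.405 and 3.55 CPM in the others. In RNA of whole animals, fewer cells of a type and less RNA per cell cannot be told apart.

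All 6 genes had their highest level before 42 h in both sexes and were far lower by late L4. Over all tested genes, 51.4% had their highest hermaphrodite level in the first 2 windows, and 44.1% had their highest male level there. At 48 to 52 h, the median level of the 6 genes was 0.502% of each gene's own highest in hermaphrodites and 0.347% in males, beside 51.2% and 73.1% over all tested genes. The 6 genes separated in detail, by whether the level was highest in late L3 or early L4, by how low it went, and by whether it was higher again at 54 to 58 h.

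**Figure D1:**
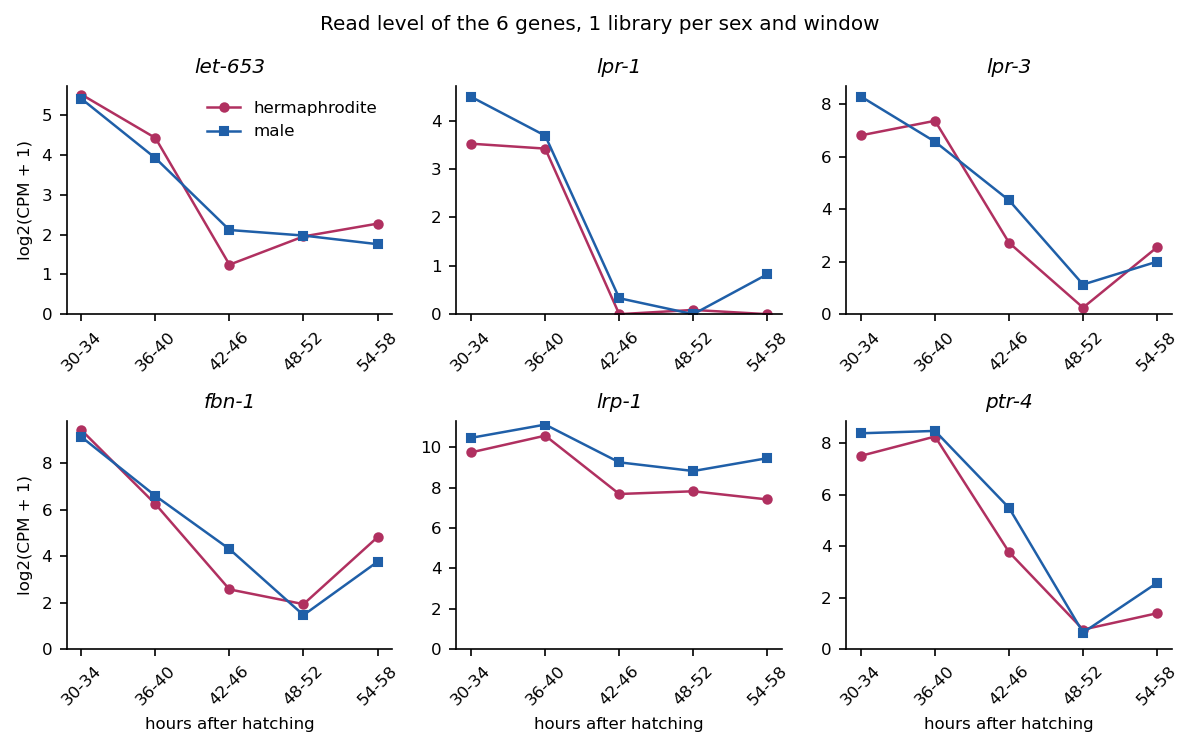
Level of each of the 6 genes as log2(CPM + 1) (y axis, own scale for each gene) at the 5 windows in hours after hatching (x axis). Each point is 1 library, with circles for hermaphrodites and squares for males. Every gene is highest at one of the first 2 windows, and lrp-1 alone stays at 169 CPM or more in all 10 libraries.

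let-653 (C29E6.1, chromosome IV, 11885613 to 11891082, plus strand, WBcel235) encodes a secreted protein with a zona pellucida domain that lines the vulval lumen and the excretory duct. Its level in hermaphrodites was 45.1, 20.6, 1.37, 2.88 and 3.85 CPM in order of time. In males it was 41.8, 14.2, 3.34, 2.94 and 2.39 CPM. The late L3 libraries of both sexes were the highest, the early L4 libraries came next, and the 6 later libraries lay together between 1.37 and 3.85 CPM. The hermaphrodite level was 15-fold lower at 42 to 46 h than at 36 to 40 h (95% interval 8.37 to 29.5), and the male level 4.26-fold lower (3.27 to 5.63). Each such interval is exact binomial on the reads of the 2 libraries compared and covers counting error only.

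lpr-1 (Y65B4BR.2, chromosome I, 557375 to 561671, plus strand) encodes a secreted lipocalin that keeps the lumen of the excretory duct and pore open. Its reads in hermaphrodites were 101, 85, 0, 1 and 0 in order of time, or 10.5, 9.72, 0, 0.0625 and 0 CPM. Its reads in males were 247, 319, 5, 0 and 10, or 21.5, 11.9, 0.257, 0 and 0.772 CPM. The 4 libraries of the first 2 windows therefore stood apart from the other 6, which held at most 10 reads each. Against a floor of 3 reads in the library at 0, the hermaphrodite level at 42 to 46 h was at least 28.3-fold lower than at 36 to 40 h. In males the same step was 46.2-fold (19.6 to 143).

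lpr-3 (W04G3.8, chromosome X, 11057401 to 11059793, plus strand) encodes a lipocalin of the precuticle that is needed for the integrity of the epidermal barrier. Hermaphrodites gave 112, 165, 5.61, 0.188 and 4.87 CPM in order of time. Males gave 314, 94.5, 19.3, 1.19 and 3.01 CPM. The level was highest in early L4 in hermaphrodites and in late L3 in males, and in both sexes the lowest library was that of 48 to 52 h. It was 29.4-fold lower at 42 to 46 h than at 36 to 40 h in hermaphrodites (22.1 to 39.9), and 29.9-fold lower again at 48 to 52 h (9.65 to 150). The male steps were 4.89-fold (4.39 to 5.46) and 16.2-fold (9.69 to 29.2).

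lpr-3 heads a run of 4 lipocalin genes on the plus strand of chromosome X. lpr-6 spans 11059994 to 11061871, lpr-5 spans 11062123 to 11064539 and lpr-4 spans 11065126 to 11066811. In the order lpr-6, lpr-5 and lpr-4, the early L4 hermaphrodite levels were 83.2, 154 and 142 CPM, and the levels at 48 to 52 h were 0.25, 0.125 and 0.563 CPM. The corresponding male levels were 94.2, 91.6 and 109 CPM in early L4 and 0.637, 0.0796 and 0 CPM at 48 to 52 h. All 3 neighbours, like lpr-3, were thus far lower at 48 to 52 h than in early L4 in both sexes. Their courses were not the same in detail, since in hermaphrodites lpr-6 was highest in late L3, at 121 CPM, and lpr-4 was no higher at 54 to 58 h (0.541 CPM) than at 48 to 52 h. The other lipocalin genes measured differed among themselves: lpr-7, on another part of chromosome X, went from 24.6 CPM in early L4 to 0.0676 CPM at 54 to 58 h in hermaphrodites, while lpr-2, on chromosome IV, lay between 3.85 and 13.1 CPM in all 10 libraries.

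fbn-1 (ZK783.1, chromosome III, 7625386 to 7641078, plus strand) encodes a fibrillin-related matrix protein that helps epithelia resist mechanical strain. Hermaphrodites gave 685, 74.4, 4.92, 2.81 and 27.1 CPM in order of time. Males gave 558, 95.4, 18.7, 1.75 and 12.5 CPM. Of the 6 genes, only fbn-1 was already at least 4-fold lower in early L4 than in late L3. Such folds were taken on CPM + 1 where the higher of the 2 libraries had 5 CPM or more. That step was 9.2-fold in hermaphrodites (8.48 to 9.98) and 5.84-fold in males (5.58 to 6.12), and 1.67% and 0.615% of all tested genes were that much lower. The last exon overlaps upp-1 on the opposite strand from 7641034 to 7641078, and the use of strand in counting is not given, so a few reads of one gene may stand under the other.

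lrp-1 (F29D11.1, chromosome I, 7614176 to 7634143, plus strand) encodes a large endocytic receptor of the LDL receptor family, related to mammalian megalin, that is needed for molting. Hermaphrodites gave 855, 1518, 204, 224 and 169 CPM in order of time. Males gave 1409, 2222, 607, 450 and 700 CPM. Early L4 was the highest window in both sexes, and the male library was above the hermaphrodite library at every window. Between 36 to 40 h and 42 to 46 h the level was 7.43-fold lower in hermaphrodites (7.07 to 7.81) and 3.66-fold lower in males (3.59 to 3.73).

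ptr-4 (C45B2.7, chromosome X, 6060758 to 6065986, minus strand) encodes a membrane protein related to the Hedgehog receptor Patched that is needed to assemble the precuticle and to molt. Hermaphrodites gave 181, 305, 12.6, 0.688 and 1.62 CPM in order of time. Males gave 333, 355, 43.8, 0.557 and 4.94 CPM. Early L4 was the highest window in both sexes and 48 to 52 h the lowest. The level at 42 to 46 h was 24.3-fold below early L4 in hermaphrodites (20.0 to 29.6) and 8.1-fold below in males (7.55 to 8.7), and at 48 to 52 h it was lower by a further 18.3-fold (9.85 to 37.8) and 78.6-fold (38 to 196).

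Levels can be compared between genes only per length. As CPM per kilobase of exon, the medians over the 10 libraries came in the order lrp-1 (44.4), ptr-4 (9.03), lpr-3 (6.04), fbn-1 (2.4), let-653 (1.37) and lpr-1 (0.308). The range over libraries was 11.5 to 151 for lrp-1, 0.178 to 114 for ptr-4, 0.0908 to 152 for lpr-3, 0.183 to 71.6 for fbn-1, 0.522 to 17.1 for let-653 and 0 to 12.9 for lpr-1. Every gene's range overlapped that of its neighbours in the order. In their highest library, lrp-1 and lpr-3 lay at nearly the same level per kilobase, and they differed chiefly in how low they went afterwards.

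Within L4, from 36 to 40 h to 42 to 46 h, all 6 genes were at least 4-fold lower in hermaphrodites, beside 3.87% of all tested genes. In males 4 of the 6 were (lpr-1, lpr-3, fbn-1 and ptr-4), beside 3.08%. From 42 to 46 h to 48 to 52 h, lpr-3 and ptr-4 in hermaphrodites (2.61% of all genes) and lpr-3, fbn-1 and ptr-4 in males (2.42%) were lower by at least 4-fold once more. With 1 library at each window, these steps have no replicate check and no test.

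Across that border, the 4 young adult libraries were compared with the 4 L4 libraries, with a term for sex and a separate level for late L3. Of the 6 genes, ptr-4 fell, by 6.63 on the log2 scale (± 1.21, approximate SE, 10 libraries; adjusted p = 0.0206, edgeR quasi-likelihood test with Benjamini-Hochberg adjustment over all tested genes), beside 3.46% of all genes called lower. Its L4 levels of 12.6 to 355 CPM did not overlap its young adult levels of 0.557 to 4.94 CPM. The call did not hold when any 1 of the hermaphrodite libraries of 48 to 52 h (adjusted p = 0.0805) or 54 to 58 h (0.0596), or the male libraries of 36 to 40 h (0.0811), 48 to 52 h (0.0872) or 54 to 58 h (0.0539) was left out, nor with limma-voom (0.158). The other 5 were lower without passing: lpr-3 at a log2 difference of -4.93 ± 1.21 (adjusted p = 0.0614), lpr-1 at -4.97 ± 1.72 (0.182), lrp-1 at -1.7 ± 0.6 (0.19), let-653 at -1.71 ± 0.72 (0.269) and fbn-1 at -2.2 ± 1.03 (0.314). Of these, only lpr-3 had groups that did not overlap, with 5.61 to 165 CPM in L4 and 0.188 to 4.87 CPM in young adults. Against late L4 alone the differences were closer to 0 or above it. They were -3.76 for ptr-4 (adjusted p = 0.025) and -2.31 for lpr-3 (0.492), -0.14 for fbn-1 (0.962) and -0.07 for lrp-1 (0.938), and above 0 for let-653 (0.32; 0.82) and lpr-1 (0.47; 0.906). The median log2 difference in the comparison with all of L4 was -3.57 over the 6 genes and -0.09 over all genes tested. DESeq2 called 3 of the 6 (ptr-4, lpr-3 and lpr-1) and limma-voom none. Over all genes tested they called 1409 and 156, in either direction.

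A linear slope per 6 h step was fitted over the 5 windows in each sex. In hermaphrodites 4 of the 6 genes fell, beside 16.9% of all genes. lpr-1 fell by 2.9 per step on the log2 scale (± 0.86; adjusted p = 0.0292) and ptr-4 by 2.31 (± 0.66; 0.0264). The lpr-1 reads, 101, 85, 0, 1 and 0 in order of time, dropped between early and late L4, so its slope is no steady fall per step. let-653 fell by 0.97 (± 0.27; 0.0235) and lrp-1 by 0.81 (± 0.25; 0.0333). The slopes of lpr-3, -1.56 ± 0.55 (0.0517), and fbn-1, -1.2 ± 0.47 (0.0727), did not pass. Without the hermaphrodite library of 48 to 52 h none of the 4 calls held (adjusted p = 0.075 to 0.103). Without that of 54 to 58 h the calls for lpr-1 (0.133), ptr-4 (0.0966) and lrp-1 (0.139) did not hold, while lpr-3, at -3.48 (0.0478), and fbn-1, at -2.72 (0.0221), passed with slopes more than 1.5 times as steep. Without that of 30 to 34 h the call for let-653 did not hold (0.115), and it was at 0.0531 when hermaphrodites were fitted alone. DESeq2 called all 6 genes. limma-voom called 5, with lpr-3 (0.0222) and fbn-1 (0.00401) among them but not ptr-4 (0.0821). Of all 15924 genes tested, DESeq2 called 8103 and limma-voom 5447 for this slope, in either direction. The median slope was -1.38 over the 6 genes and -0.15 over all genes tested.

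In males the slopes were negative for all 6 genes, from -0.44 ± 0.23 for lrp-1 (adjusted p = 0.337) to -1.92 ± 0.6 for ptr-4 (0.143), and none passed the adjusted test. Few male slopes of any gene did, 0.59% of those tested. For 5 of the 6 the unadjusted p was under 0.05, and DESeq2 and limma-voom each called 4. Over all 15924 genes tested, 3084 had an unadjusted p under 0.05, and DESeq2 and limma-voom called 2007 and 931. The difference between the male and the hermaphrodite slope was itself tested, and it passed for none of the 6 genes, with no unadjusted p under 0.05, none called by DESeq2 or limma-voom, and 16.9% of all genes called. It ranged from -0.28 ± 0.65 per step for lpr-3 to 1.41 ± 1.06 for lpr-1, so that these data do not separate the sexes' slopes and do not show them to be equal.

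**Figure D2:**
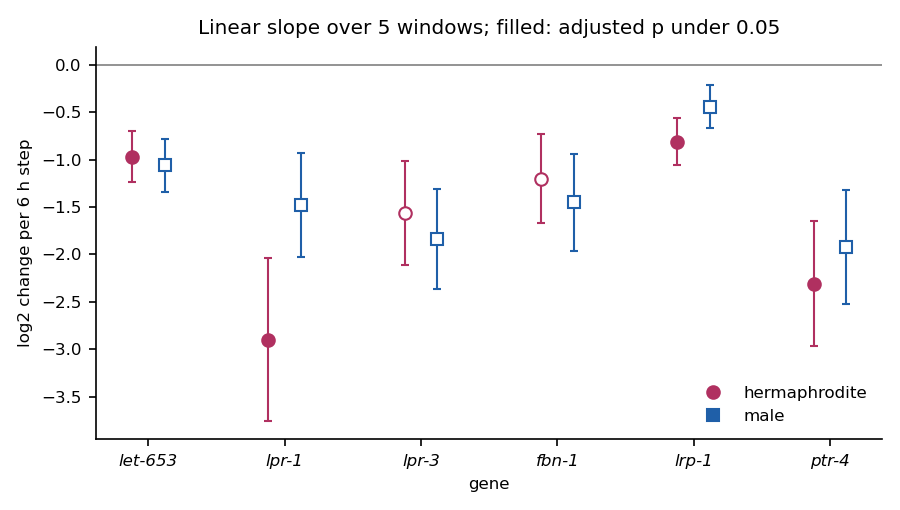
Slope per 6 h step in log2 units (y axis) for each of the 6 genes (x axis), from the edgeR fit of all 10 libraries. Circles are hermaphrodites, squares males, bars the approximate SE, and filled symbols passed an adjusted p of 0.05. All 12 slopes lie below 0, and 4 hermaphrodite slopes are filled.

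Within young adulthood, some of the 6 genes were higher at the later window. fbn-1 was 9.63-fold higher at 54 to 58 h than at 48 to 52 h in hermaphrodites (7.07 to 13.4) and 7.14-fold higher in males (4.56 to 11.7). With 5 CPM or more asked of the higher library, it was the only one of the 6 past 4-fold on CPM + 1, as were 0.132% of all genes in hermaphrodites and 0.276% in males. lpr-3 went from 0.188 to 4.87 CPM in hermaphrodites, just under the limit of 5 CPM. That ratio was 25.9, with the wide interval of 8.53 to 129 that 3 reads allow, and its male ratio was 2.52 (1.36 to 4.92). ptr-4 gave ratios of 2.36 (1.11 to 5.33) in hermaphrodites and 8.87 (4.06 to 22.9) in males. lrp-1 went in opposite directions, 1.33-fold lower in hermaphrodites (1.26 to 1.4) and 1.56-fold higher in males (1.51 to 1.61). For let-653 both intervals included 1. The fbn-1 level at 54 to 58 h was still far below that of late L3, 27.1 against 685 CPM in hermaphrodites and 12.5 against 558 CPM in males.

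Between the sexes, lrp-1 differed. Over the whole course, with the windows as blocks, it was higher in males by 1.18 ± 0.26 on the log2 scale, or 2.26-fold (10 libraries; adjusted p = 0.0288, edgeR), and it was higher in males in 5 of 5 windows. At the single windows the ratio of male to hermaphrodite was 1.65 (1.6 to 1.69), 1.46 (1.44 to 1.49), 2.97 (2.82 to 3.12), 2.01 (1.92 to 2.09) and 4.14 (3.96 to 4.33) in order of time. The last of these is past 4-fold on CPM + 1, as were 16.6% of all genes at that window, and no other member reached that size at any window. Of the 6 genes only lrp-1 was called, a share near the 18.9% of all genes that were. Most of those (15.3% of all genes tested) were higher in males. The call did not hold without the hermaphrodite library of 42 to 46 h (0.0899) or 48 to 52 h (0.1) or the male library of 42 to 46 h (0.09) or 48 to 52 h (0.145), nor without both libraries of any window but 36 to 40 h (0.0504 to 0.121), and with no block on the window it was 0.86 (0.368). The median difference over all genes was 0.21, and 0.32 by library size alone, under which lrp-1 stood at 1.28.

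In the 4 young adult libraries compared by themselves, lrp-1 was higher in males by 1.56 ± 0.3 on the log2 scale (adjusted p = 0.0078), with 169 and 224 CPM in hermaphrodites and 450 and 700 in males. That call held with each of the 4 libraries left out. It stands against a background in which 62.0% of all genes were called in one direction or the other and the median difference was 0.32. In the same libraries the oocyte marker sum was 7837 and 9746 CPM in hermaphrodites and 430 and 465 CPM in males, the germline marker sum 1813 and 1866 against 551 and 475 CPM, and the muscle marker sum 5328 and 3313 against 12437 and 9270 CPM. No germline, oocyte or muscle marker was at 0 there. The part these differences in tissue have in the lrp-1 result was not tested. The epidermal marker sum was lower in males, 143 and 126 against 155 and 178 CPM, at both of these windows. Of the single epidermal markers, levels are given here only for nhr-23, che-14, nhr-25 and dpy-7, and these went both ways. The other markers in the sum (elt-1, elt-3, lin-26 and grd-10) are not given singly, so their directions are not shown. In males nhr-23 (33.1 and 34.0 against 25.6 and 25.8 CPM) and che-14 (1.59 and 1.47 against 0.813 and 1.15) were higher. There nhr-25 (0.637 and 1.54 against 0.938 and 3.99 CPM) was lower. For dpy-7 (0 and 3.32 against 0.188 and 0.811 CPM) the windows differed in direction. The part of the epidermis in the lrp-1 result was not tested.

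The other 5 genes showed no sex difference that passed. Over the course the log2 difference was 0.91 ± 0.34 for ptr-4 (adjusted p = 0.0913), 1.34 ± 0.88 for lpr-1 (0.275), 0.76 ± 0.55 for lpr-3 (0.319), 0.01 ± 0.44 for fbn-1 (0.984) and -0.03 ± 0.38 for let-653 (0.953). In young adults none of the 5 passed either, although lpr-3, at -0.21 ± 1.29 (0.898), stood at 3.46 (0.0487) without the hermaphrodite library of 54 to 58 h. By window, the male ratio at 42 to 46 h was 2.43 for let-653 (1.3 to 4.95) and 3.45 for lpr-3 (2.55 to 4.74). It was 3.8 for fbn-1 (2.77 to 5.34) and 3.48 for ptr-4 (2.85 to 4.28), so above 1 for each of these. lpr-1 had 5 reads in the male library of that window and 0 in the hermaphrodite one. Against the floor of 3 reads its ratio was at least 0.748, which does not place it above 1. The median of the gene-by-gene differences in log2(CPM + 1), male minus hermaphrodite, was 1.59 at 42 to 46 h over the 6 genes. Over all tested genes it was 0.18. At the other windows, in order of time, this median was 0.8, 0.24, -0.03 and 0.15 over the 6 genes and 0.09 to 0.23 over all. At 54 to 58 h the male ratio was below 1 for fbn-1 (0.461, 0.382 to 0.555), lpr-3 (0.619, 0.408 to 0.926) and let-653 (0.621, 0.388 to 0.979). The epidermal marker sum at 42 to 46 h was 148 CPM in males and 109 in hermaphrodites. At 54 to 58 h it was 126 CPM in males and 178 in hermaphrodites. The part of the epidermis in these ratios was not tested. At 36 to 40 h the order was mixed, with lpr-3 1.75-fold (1.64 to 1.86) and let-653 1.45-fold (1.2 to 1.73) higher in hermaphrodites.

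**Figure D3:**
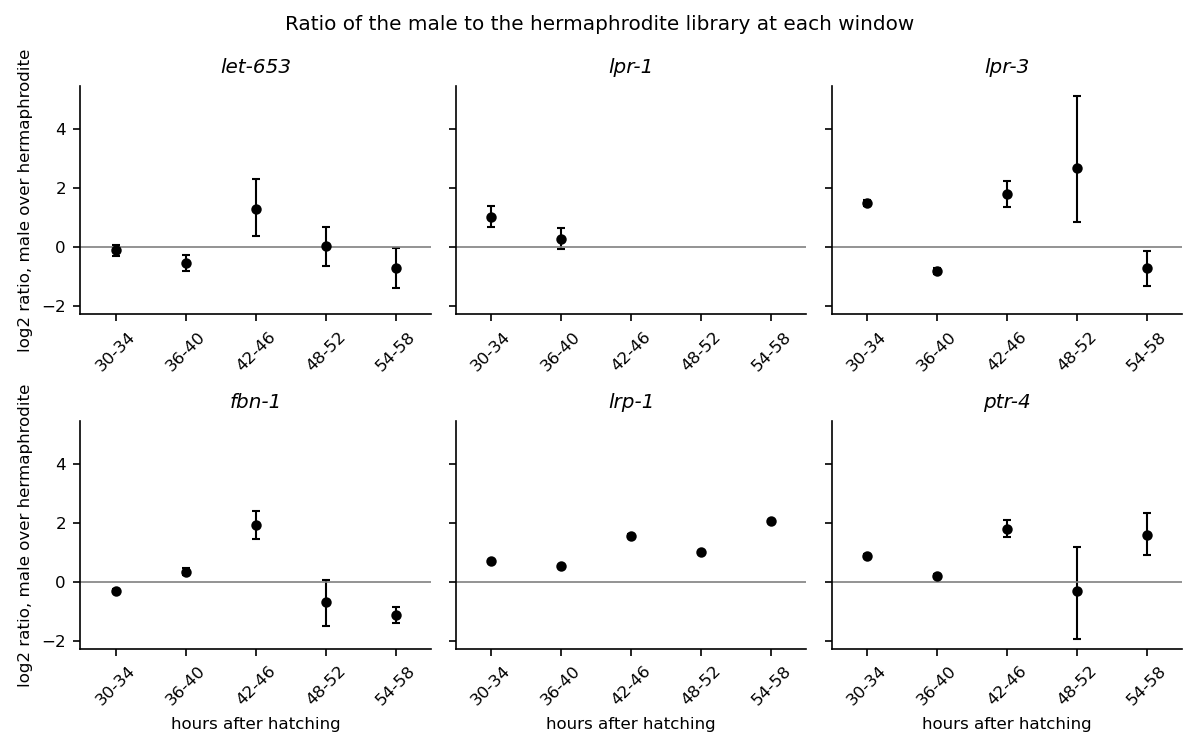
Log2 ratio of the male to the hermaphrodite library (y axis) at each window in hours after hatching (x axis). Points are ratios of 2 single libraries and bars 95% counting intervals; for lpr-1, windows with 0 reads or 1 read in a library are left out. lrp-1 lies above 0 at all 5 windows, and every gene shown at 42 to 46 h lies above 0.

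Whether the change from L4 to young adult differed between the sexes was tested as an interaction. No member passed, and no unadjusted p of a member was under 0.05. Over all genes edgeR called 0 of 15924, although 3419 had an unadjusted p under 0.05, while DESeq2 called 1369 genes, none of them a member, and limma-voom 0. The estimates for the 6 genes ran from -1.59 ± 2.16 for fbn-1 to 2.95 ± 3.87 for lpr-1.

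The 6 genes followed similar courses. Pearson's r of log2(CPM + 1) over the 10 libraries, a description since the points share stage and library, ran from 0.663 for fbn-1 with lrp-1 to 0.97 for lpr-3 with ptr-4. Among the 10801 tested genes that averaged 5 CPM or more, the 10 closest to the mean course of the 6 were wrt-10 (r = 0.992), noah-2 (0.991), ptr-10 (0.99), C09F9.2, pan-1, ptr-25, C15F1.2, F11E6.9, cdh-7 and dpy-7 (0.98). wrt-10 is a Hedgehog-related gene, noah-2 encodes an apical matrix protein with a zona pellucida domain, and dpy-7 a collagen of the cuticle furrows. In males wrt-10 gave 213, 57.6, 6.12, 0.159 and 2.39 CPM in order of time.

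Gene by gene, the closest courses differed. For lpr-3 they were let-4, noah-2 and noah-1 (r = 0.991 each), all genes of the apical matrix. For ptr-4 they were acn-1 (0.991), which encodes an inactive relative of angiotensin-converting enzyme needed for molting, dpy-8 and lpr-5 (0.989 each). For fbn-1 they were nhr-25 (0.958), a nuclear receptor of the epidermis and molting, C09F9.2 (0.954) and myrf-2 (0.952). For let-653 they were let-413 (0.973), Y75B8A.6 (0.968) and myrf-2 (0.967), and for lpr-1 C34C12.6 (0.992), pan-1 and rml-5 (0.981 each). For lrp-1 they were ergi-2 (0.982), grh-1 and tag-123 (0.98 each), of which grh-1 encodes an epidermal transcription factor. Pearson's r takes no account of the size of a change. In hermaphrodites let-413 lay between 39.2 and 81.4 CPM, while let-653 lay between 1.37 and 45.1. There tag-123 lay between 110 and 249 CPM, while lrp-1 lay between 169 and 1518. nhr-25 shared with fbn-1 a higher level at 54 to 58 h than at 48 to 52 h, from 0.938 to 3.99 CPM in hermaphrodites and from 0.637 to 1.54 CPM in males.

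Most of the 17 other genes of the precuticle and apical matrix, all of them tested, were also high early and low late. In hermaphrodites 10 of the 17 had falling slopes, beside 16.9% of all genes, led by dpy-1 (-2.71 ± 0.42; adjusted p = 0.0022), lpr-4 (-2.49 ± 0.7; 0.0248) and lpr-5 (-2.24 ± 0.73; 0.0402). The median slope of the list was -1.35. From L4 to young adult 6 of the 17 fell, beside 3.46% of all genes, led by the furrow-associated protein gene spia-1 (-7.63 ± 1.5; 0.0258). In each sex 12 of the 17 were at least 4-fold lower at 42 to 46 h than at 36 to 40 h, beside 3.87% of all genes in hermaphrodites and 3.08% in males. The exception in direction was egg-6, which encodes a leucine-rich repeat protein of the apical matrix: it rose in hermaphrodites, with 31.4, 59.2, 136, 367 and 384 CPM in order of time, and lay between 38.4 and 42.3 CPM in males. The germline marker sum was 358 CPM in the first and 1866 CPM in the last of the same hermaphrodite libraries, and its part in egg-6 was not tested. In males the slope passed for 1 of the 17, beside 0.59% of all genes. This was dyf-7, which encodes a zona pellucida protein that anchors sensory dendrites (-1.52 ± 0.17; 0.0322). Over the course 2 of the 17 were higher in males, cut-6 (2.94 ± 0.67; 0.0306) and spia-1 (1.92 ± 0.49; 0.0359), a share below the 15.3% of all genes that were.

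**Figure D4:**
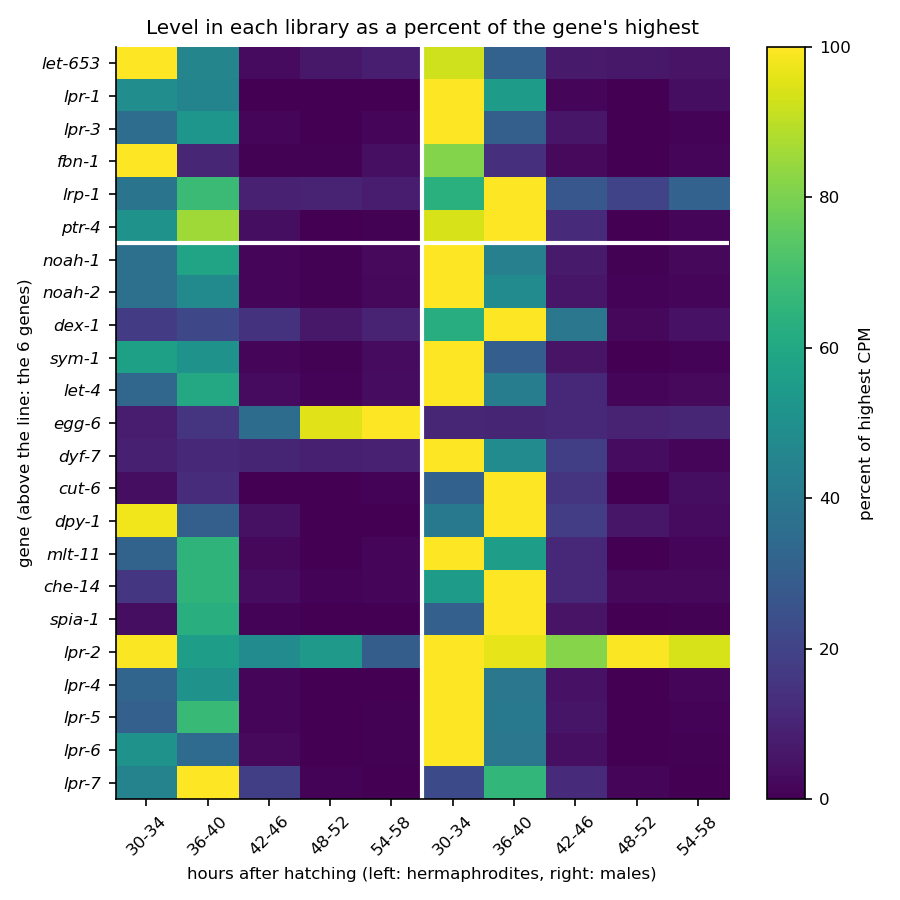
Level of the 6 genes (above the white line) and of the 17 other precuticle and apical matrix genes (below it), as a percent of each gene's highest CPM over the 10 libraries (colour), for 5 hermaphrodite and 5 male libraries in order of time (x axis, hours after hatching). The last 2 windows of each sex are dark for all but egg-6, high in late hermaphrodites, lpr-2, high in most male libraries, and lrp-1, at 31.5% of its highest in the last male library.

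Genes related to ptr-4 went in both directions. Of 25 patched-related genes on the list 24 were tested. From L4 to young adult 11 fell, beside 3.46% of all genes, and none rose, led by ptr-1 (-5.93 ± 0.82; adjusted p = 0.00757), ptr-16 (-5.93 ± 0.98; 0.0136) and ptr-18 (-5.68 ± 0.89; 0.0106), with a median over the list of -2.13. In hermaphrodites 10 had falling slopes, beside 16.9% of all genes, and 2, ptr-2 and ptc-1, rose. Over all 15924 genes tested, 6016 hermaphrodite slopes passed, of which 2684 fell, so rising slopes were less frequent on this list than over all genes. In young adults 9 of the 24 were higher in males, led by ptr-22 (4.33 ± 0.75; 0.00575) and ptr-5 (2.83 ± 0.43; 0.00378), and 2 were higher in hermaphrodites, of which ptr-2 had the larger difference (-3.7 ± 0.22; 0.000691). These 11 of 24 are a smaller share than the 62.0% of all genes called in that comparison.

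Genes that serve endocytic receptors such as LRP-1 were listed apart. None of the 10 on that list, which holds clathrin, its adaptors, dynamin and the related receptor lrp-2, passed from L4 to young adult, and the median difference was 0.11. In hermaphrodites the adaptor gene dab-1 (0.52 ± 0.08 per step; adjusted p = 0.00175) and the early endosome GTPase gene rab-5 (0.35 ± 0.09; 0.0204) rose, in the libraries in which the oocyte marker sum went from 122 to 9746 CPM. The part of the oocytes was not tested. Of all 15924 genes tested, 6016 had a hermaphrodite slope that passed, 2684 of them falling and the rest rising. Rising slopes were thus no more frequent among the 10 than over all genes. In young adults lrp-2 was higher in males (0.92 ± 0.15; 0.00498), while 5 of the 10 were higher in hermaphrodites, led by dab-1 (-1.87 ± 0.2; 0.00161) and rab-5 (-1.44 ± 0.23; 0.0046). These 6 of 10 are near the 62.0% of all genes called in that comparison.

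Regulators and enzymes of molting and the furrow collagens fell in many cases. Of 21 molting genes, 13 had falling slopes in hermaphrodites, beside 16.9% of all genes, and 8 fell from L4 to young adult, beside 3.46%, led by the Hedgehog-related gene qua-1 (-6.87 ± 1.26; adjusted p = 0.021), acn-1 (-6.35 ± 1.07; 0.0149) and mlt-8 (-6.3 ± 0.93; 0.00863). Of 6 furrow collagens, 4 fell from L4 to young adult (3.46% of all genes), led by dpy-8 (-5.73 ± 1.24; 0.0373), and all 6 were at least 4-fold lower at 42 to 46 h than at 36 to 40 h in both sexes. The windows of the highest level were not the same: 17 of the 21 molting genes were highest in early L4 in hermaphrodites and 16 in males, while the furrow collagens were all highest in early L4 in hermaphrodites and all in late L3 in males. Of the 6 precuticle genes, 3 in hermaphrodites (lpr-3, lrp-1 and ptr-4) and 2 in males (lrp-1 and ptr-4) were highest in early L4. Over all 15924 genes tested, 3905 were highest in early L4 in hermaphrodites. In males 3411 were highest in early L4 and 3605 in late L3. The 2 of 6 in males are not far above that early L4 share.

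Calls among the listed genes leaned on single libraries as those of the 6 genes did. Up to 3 calls per list and test were followed by leaving out each library, and each window for sex over the course. From L4 to young adult 1 of 12 such calls held throughout (ptr-1), in the hermaphrodite slope 4 of 14 (dpy-1, ptr-10, dab-1 and dpy-9), and over the course by sex 0 of 9. Against late L4 alone, fewer genes fell: 3 in place of 6 of the apical matrix list, 5 in place of 11 patched-related genes, 5 in place of 8 molting genes and 2 in place of 4 furrow collagens. In young adults by sex 9 of 14 held (egg-6, ptr-22, ptr-2, ptr-5, dab-1, rab-5, lrp-2, nas-37 and dpy-2). The male slope of dyf-7 did not hold throughout.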

How the data were processed

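RNA of whole him-5 animals was sequenced in 10 libraries, 1 per sex and window. The authors deposited raw counts, not normalized, 1 table per library. The submitters' processing notes name CASAVA 1.8 and HTSeq. Not given in the sources used here are the aligner, the genome build, the version of HTSeq and whether it counted by strand. Rows that name no gene were left out of library sizes. They held, of all reads, 2.18% to 3.98% on no feature, 0.32% to 0.75% ambiguous, 3.31% to 25.38% not aligned and 11.23% to 17.83% aligned to several places, so that near-identical genes are counted low. Names and positions are those of Ensembl WBcel235, with 46183 sequence names found and 406 not; spia-1 and ptc-2 were found through RefSeq locus tags.

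The 15924 genes that reached 1 CPM in 2 or more libraries were tested with edgeR 4.0.16 (TMM, quasi-likelihood, R 4.3.3), with Benjamini-Hochberg adjustment over all of them and a threshold of 0.05 in 7 tests. The SE is approximate, the size of the log2 value over the root of its F. The slope difference between the sexes, and other scalings of the ratios of 2 libraries, were added after seeing the data. Alternatives used DESeq2 1.42.0 and limma 3.58.1, other scalings and filters, and each library left out. Named genes are the 6, up to 3 called members of each list and test by size, and the closest courses (Pearson's r; 3 per gene, 10 for the mean); names beyond these were chosen after their values were seen. The members and lists were chosen with earlier results of these data known. No sequences are printed.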

Additional observations from a re-analysis of the deposited data

Results flagged for a closer look

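Slopes per 6 h step that differed between the sexes were found among the related genes named in the report, in edgeR's quasi-likelihood test of the male minus the hermaphrodite slope over 10 libraries, a test added after seeing the data. dyf-7, of the apical matrix list, had a difference of -1.5 ± 0.23 (approximate SE; adjusted p = 0.0145), with 1.46, 1.83, 1.72, 1.44 and 1.55 CPM in hermaphrodites and 16.7, 8.05, 3.08, 0.557 and 0.309 CPM in males. egg-6 had -1.0 ± 0.13 (0.0141) and ptr-2 had -1.16 ± 0.19 (0.0145). For ptc-1, the C. elegans Patched gene that acts in the germline, the difference was -0.49 ± 0.11 (0.026), with levels of 278 to 1121 CPM in the hermaphrodite libraries and of 374 to 572 CPM in the male ones. ptr-24 had 0.47 ± 0.1 (0.0243) and dab-1 had -0.6 ± 0.11 (0.0157). mlt-4, of the molting list, had 1.58 ± 0.38 (0.0294), with 1.88, 2.63, 0.687, 0.688 and 0.0676 CPM in hermaphrodites and 1.57, 3.61, 6.27, 9.31 and 8.1 CPM in males. None of the 7 calls held with every library left out in turn, and each was lost without the male library of 30 to 34 h. None of the 6 precuticle genes was among them, and with 1 or 2 libraries in each combination of sex and stage no library could be tested as standing apart within its group.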

How the results depend on the processing

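With 1 library per sex and window, each count of called genes among the 6 rested on few libraries. Of 694 values of single members under an alternative, 580 kept direction and call, 61 changed sign, 25 lost a call and 28 gained one. The libraries of a window were paired as a block in the test of sex over the course; the labels give no replicate numbers. Leaving out 1 library or window, the members called numbered 0 to 1 for sex over the course (1 in the report), 0 to 2 for young adults against L4 (1), 0 to 4 for the hermaphrodite slope (4) and 1 to 2 for sex in young adults (1). Without that pairing, with no block on the window, 0 were called for sex over the course. Young adults against L4 gave 3 with DESeq2, 0 with limma-voom, 6 without a filter and 2 with late L3 joined to L4. The male slope (0) gave 4 with DESeq2, 4 with limma-voom and 2 when males were fitted alone, and the interaction (0) gave 1 without a filter. Of the 10 closest courses, 5 were shared under Spearman's rho and 7 with a mean of at least 20 CPM.

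Over all genes, the calls of the report against DESeq2 and limma-voom were 3003, 5920 and 5258 for sex over the course, 563, 1409 and 156 for young adults against L4, 0, 1369 and 0 for the interaction, 94, 2007 and 931 for the male slope, and 2697, 5399 and 2518 for the slope difference. Leaving out 1 library or window moved these counts to 76 to 3095, 116 to 709, 0 to 2091, 0 to 298 and 0 to 4631, and the hermaphrodite slope (6016) to 2615 to 6645. Without a filter the counts were 1642 for young adults against L4, 1769 for the interaction and 1222 for the slope difference.

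Values near 0 changed sign. For sex over the course, fbn-1 (0.01) was -0.03 with RLE factors, -0.04 with DESeq2, -0.05 with limma-voom, -0.07 without a filter and -0.21 with no block, and let-653 (-0.03) was 0.08 by library size alone. With late L4 alone in place of L4, let-653 was 0.32 and lpr-1 0.47 against young adults. The interaction of let-653 (-0.01) was 0.02 with RLE factors, DESeq2 or no filter and 0.41 by library size; that of lpr-3 was -0.86 with late L3 joined and that of ptr-4 -0.37 with limma-voom. In young adults lpr-3 (-0.21) was 0.10 by library size, 0.95 with limma-voom and 0.03 with the stricter filter. The slope difference was 0.00299 for fbn-1 and -0.08 for ptr-4 with limma-voom, and 0.00171 for let-653 by library size. By library size the hermaphrodite ratio of lrp-1 from 42 to 46 h to 48 to 52 h was 0.89 (1.1 in the report), and the male ratio of ptr-4 from 30 to 34 h to 36 to 40 h was 0.957 (1.06).

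With libraries left out, signs changed within these ranges. For sex over the course they were -0.59 to 0.32 (fbn-1) and -0.49 to 0.12 (let-653). For the interaction they were -4.6 to 0.81 (fbn-1), -3.0 to 1.39 (let-653), -6.21 to 7.43 (lpr-1), -3.59 to 4.0 (lpr-3), -1.24 to 2.06 (lrp-1) and -2.72 to 3.12 (ptr-4). In young adults they were -3.04 to 1.38 (fbn-1), -2.24 to 5.45 (lpr-1), -1.17 to 3.46 (lpr-3) and -1.0 to 2.15 (ptr-4). For the slope difference they were -1.49 to 1.28 (fbn-1), -0.37 to 0.41 (let-653), -0.55 to 2.74 (lpr-1), -0.98 to 1.64 (lpr-3) and -0.6 to 1.35 (ptr-4). The causes were not tested. Depth limits lpr-1 most, since 6 of its libraries held at most 10 reads.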

Other observations

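Not every patched-related gene had its peak where ptr-4 had it. ptr-13 and ptr-8, singled out after their values were seen, were at their lowest male level in early L4, when ptr-4 was at its highest. ptr-13 gave 33.7, 2.29, 23.6, 16.1 and 12.6 CPM in hermaphrodites and 27.3, 4.99, 91.4, 78.0 and 58.7 CPM in males. ptr-8 gave 93.0, 22.1, 58.6, 30.7 and 23.5 CPM in hermaphrodites and 136, 12, 133, 39.6 and 57.3 CPM in males. Both were at least 4-fold lower at 36 to 40 h than at 30 to 34 h in both sexes, and both were at least 4-fold higher again at 42 to 46 h in males. ptr-22, also chosen after its values were seen, was at 2.72 CPM in early L4 males and 59.2 CPM at 54 to 58 h. nas-37, which encodes a protease that opens the old cuticle at the molt, stayed at 27.1 to 29.7 CPM in hermaphrodites from 42 h on and was at 2.63 and 3.86 CPM in young adult males, a difference of -3.11 ± 0.32 on the log2 scale (adjusted p = 0.00155, edgeR).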
